A study of Mus musculus with 4 samples.

Results

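Lipid and metabolite receptors of lymphocytes were examined in naive CD4+ T cells with and without TACI. The 10 genes S1pr1, S1pr4, Gpr183, Gpbar1, Gpr18, Gpr171, Gpr132, P2ry10, Adora2a and Ptger4 were chosen by name as a family, with earlier results of these data known. Each gene was represented by the probe set with the highest mean over the 4 arrays among those that the platform annotation pairs with 1 gene symbol. That mean is the measured value used by the choice, and it is given here as a description. Of the 10 genes, 9 had such a probe set, out of 22180 genes measured in this way. Adora2a had none and was not analysed here. All 9 lay at or above the low-value level, the 40th percentile of each array (3.74 to 3.77 log2 units), on all 4 arrays, and all 9 were among the 13782 genes tested.

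Naive CD4+ T cells (CD44 low and CD25 negative among the gates) were sorted from pooled spleen and lymph nodes of C57BL/6 mice of 2 genotypes, TACI-/- and WT, with 2 arrays each (Affymetrix Mouse Gene 2.0 ST, 1 colour). TACI, encoded by Tnfrsf13b, is a receptor for the cytokines BAFF and APRIL with known roles in B cells. The labels call the replicates biological, give no age or treatment, and do not say how the TACI allele was made or how many mice a pool held. The number of arrays limits the precision, and levels of different probe sets cannot be set against each other.

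These receptors cross the membrane repeatedly and signal through G proteins. Most are receptors for lipids, oxysterols, bile acids, nucleosides or prostaglandins. Some are known for guiding cells out of and through lymphoid organs (sphingosine phosphate and oxysterol receptors). Others are known for raising cyclic AMP, which dampens T cell activation (the receptors for prostaglandin E2, adenosine and bile acids). Sphingosine phosphate is known to form a steep gradient from blood and lymph to tissue.

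The probe set of the targeted gene was below the low-value level on all 4 arrays, with a log2 difference of -0.07 ± 0.17 (SE), so it does not check the genotype labels. Cd4 was at 10.6 and 10.5 log2 units on the TACI-/- arrays and 10.6 and 10.5 on the WT arrays, and Cd8a was below the low-value level on all 4, whereas Cd8b1 was above it on all 4. Over the tested genes the arrays correlated at r = 0.982 within TACI-/-, 0.984 within WT and 0.976 to 0.981 between genotypes, across genes, which are not independent replicates.

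In TACI-/- cells 6 of the 9 receptor genes had log2 differences from WT of 0.33 to 1.09, and the remaining 3, S1pr1, S1pr4 and Gpr18, lay between -0.05 and 0.10. Gpbar1, the bile acid receptor, had the largest, a 2.13-fold higher level. Its WT values, 4.12 and 4.21, lay close to the medians of those arrays (4.11 and 4.13). None of the 9 passed an adjusted p of 0.05 in either direction (limma, Benjamini-Hochberg over the 13782 genes), where 0.138% of all tested genes did (19 genes), 0.109% higher and 0.029% lower in TACI-/- cells. At an unadjusted limma p under 0.05 there were 5 receptor genes higher in TACI-/- cells (Gpbar1, P2ry10, Gpr132, Ptger4 and Gpr183) and 0 lower, beside 4.94% and 3.84% of all tested genes. That count of 5 was 2 without TACI-/- replicate 1, 3 without WT replicate 1 and 2 without WT replicate 2, 3 with no moderation of the variance, and 6, with Gpr171 added, in 5 other alternatives. For 7 of the 9 both TACI-/- arrays lay above both WT arrays and for 0 of the 9 below, beside 20.5% and 18.1% of all tested genes. The median log2 difference of the 9 was 0.37, and that of all tested genes was near 0 at 0.0074. Mean levels of marker lists of B cells, regulatory T cells and activated T cells were likewise higher on both TACI-/- arrays than on both WT arrays, and their part in the receptor values was not tested. Since the genes were chosen with these differences known, nothing is read from the counts or the median beyond their description.

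**Figure D1:**
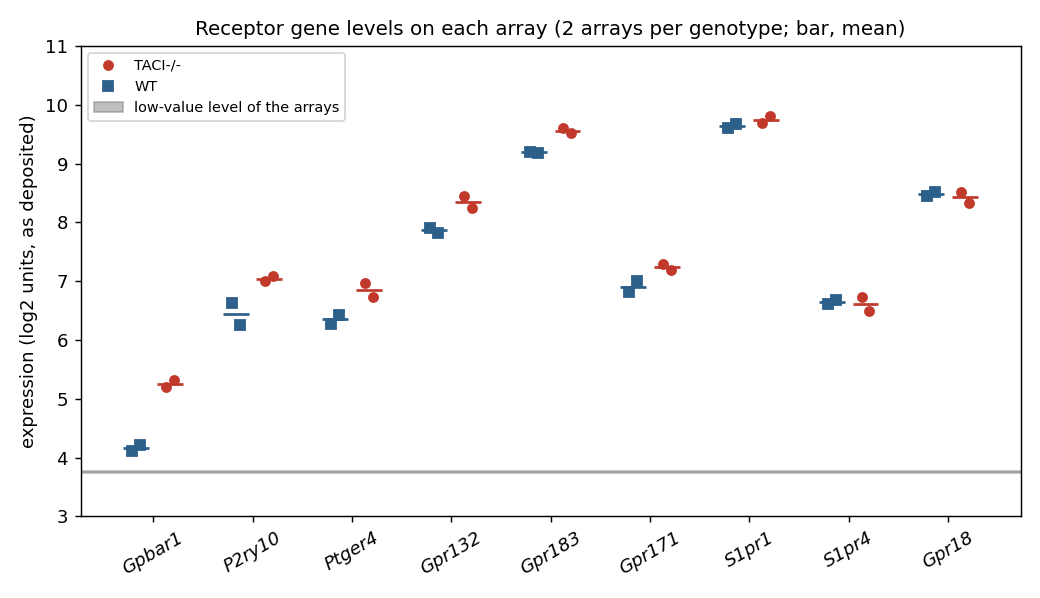
Deposited log2 expression (y axis) of the 9 receptor genes on each of the 4 arrays, red circles for TACI-/- and blue squares for WT, with a bar at each group's mean (n = 2); the grey line is the low-value level of 3.74 to 3.77. The arrays of the genotypes overlap for S1pr4 and Gpr18, and for the other 7 genes both TACI-/- arrays are the higher ones. Heights of different genes are not comparable.

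**Figure D2:**
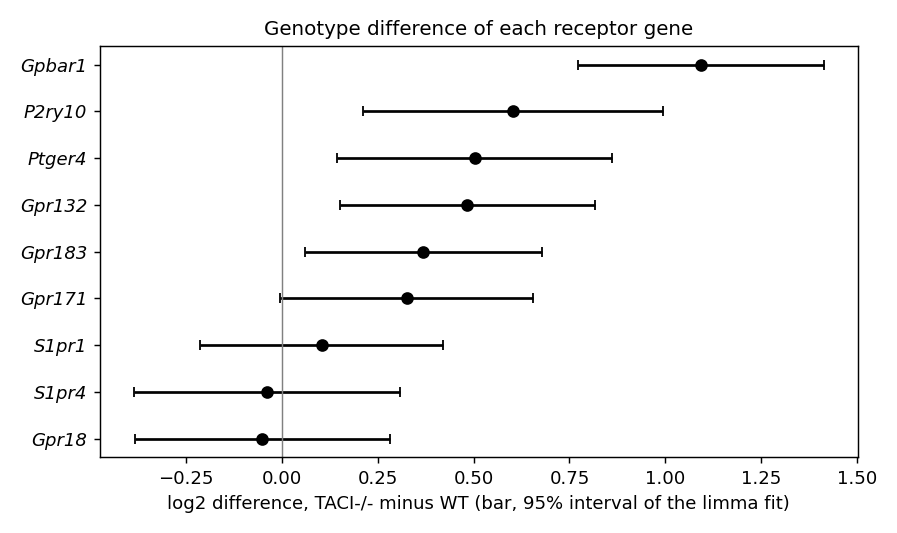
Log2 difference, TACI-/- minus WT (x axis), for each receptor gene, with the 95% interval of the limma fit (2 arrays per genotype). Gpbar1 stands at 1.09, and the intervals of Gpr171, S1pr1, S1pr4 and Gpr18 include 0; the intervals are not corrected for the number of genes.

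The data bear on promoters only through the genes that stand highest together, so the 250 bases before the RefSeq gene start are shown for the 3 receptor genes with the largest log2 differences, Gpbar1, P2ry10 (the first of its 2 starts) and Ptger4, written 5′ to 3′ along the gene. Of the 10 receptor genes 7 matched the RefSeq promoter table (GRCm38.p6), with 8 windows in all. Capitals mark letters of motifs searched on both strands: TGACGTCA, the cyclic AMP response element (CRE), its half-site TGACG, the AP-1 motif TGANTCA, the NR4A motif AAAGGTCA (NBRE), the shorter nuclear receptor half-site AGGTCA, which the NBRE contains, and CACCC, bound by Kruppel-like factors. The motifs were chosen with the expression results known.
Gpbar1 (RefSeq GRCm38.p6, chr1:74278350-74278599, plus strand): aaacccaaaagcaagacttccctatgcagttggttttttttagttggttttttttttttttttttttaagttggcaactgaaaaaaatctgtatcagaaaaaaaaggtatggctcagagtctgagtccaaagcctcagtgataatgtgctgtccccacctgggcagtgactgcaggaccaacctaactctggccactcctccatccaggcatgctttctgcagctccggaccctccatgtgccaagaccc
P2ry10 (RefSeq GRCm38.p6, chrX:107088242-107088491, plus strand): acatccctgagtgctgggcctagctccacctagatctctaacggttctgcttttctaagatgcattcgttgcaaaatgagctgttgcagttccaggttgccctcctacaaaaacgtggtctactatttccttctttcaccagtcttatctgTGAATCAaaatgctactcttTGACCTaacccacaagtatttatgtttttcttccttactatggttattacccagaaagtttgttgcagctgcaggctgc
Ptger4 (RefSeq GRCm38.p6, chr15:5244188-5244437, minus strand): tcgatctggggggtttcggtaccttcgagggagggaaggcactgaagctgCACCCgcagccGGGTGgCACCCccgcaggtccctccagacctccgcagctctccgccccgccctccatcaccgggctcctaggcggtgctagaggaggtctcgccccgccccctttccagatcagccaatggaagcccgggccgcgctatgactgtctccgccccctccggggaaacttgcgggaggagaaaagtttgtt
The Gpbar1 window held none of these letters on either strand. The RefSeq extent of Gpbar1 is only 990 bases. Whether transcription begins at its RefSeq start was not tested, so the window shown may not be its promoter. The P2ry10 window held 1 AP-1 match, TGAATCA at positions -99 to -93 from the gene start, and 1 nuclear receptor half-site on the opposite strand at -79 to -74. The Ptger4 window, at 66.8% G and C, held 3 CACCC matches between -200 and -179, one of them on the opposite strand. In the 8 windows of the receptor genes, the full CRE and the NBRE had 0 matches, the CRE half-site 2 windows, AP-1 1 window, the nuclear receptor half-site 2 windows and CACCC 3 windows. The windows with the CRE half-site were that of Gpr132 and the second of P2ry10, which lie inside the RefSeq extents of these genes. Gpr132 also gave 1 of the 2 windows with the nuclear receptor half-site and 1 of the 3 with CACCC. Of the 32851 windows in the table the same length held the CRE in 1.55%, the NBRE in 1.34%, the CRE half-site in 17.8%, AP-1 in 6.75%, the nuclear receptor half-site in 14% and CACCC in 52%. A match describes letters in the window and shows no binding.

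S1pr1 is the receptor for sphingosine 1-phosphate (S1P) through which naive T cells leave lymph nodes along the S1P gradient, and S1pr4 is a related S1P receptor of lymphocytes. S1pr1 was at 9.69 and 9.81 log2 units on the TACI-/- arrays and 9.61 and 9.68 on the WT arrays. The genotypes did not overlap, but the gap between the nearest arrays was small, and the log2 difference was 0.10 ± 0.13 (SE), with a 95% interval from -0.21 to 0.42. S1pr4 was at 6.73 and 6.48 on the TACI-/- arrays against 6.62 and 6.68 on the WT arrays. Its TACI-/- arrays lay on either side of both WT arrays, and the log2 difference was -0.04 ± 0.14 (interval -0.38 to 0.31). Without TACI-/- replicate 2 the S1pr4 difference was 0.086. At this precision no difference was detectable for either gene.

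Among the other S1P receptors, S1pr5, an egress receptor of NK cells and some T cells, had a log2 difference of -0.26 ± 0.13 (SE), S1pr2, which holds cells in follicles, 0.19 ± 0.25, and S1pr3 was below the low-value level on all 4 arrays. Of 11 tested genes of S1P synthesis, transport and breakdown, none passed the threshold in either direction, 5 had positive and 6 negative differences, and the median was -0.04. Those with the lowest unadjusted p were Spns1, a lysosomal lysophospholipid transporter of the same family as the S1P exporter Spns2, at -0.33 ± 0.13, and Mfsd2b, the S1P exporter of blood cells, at 0.26 ± 0.15.

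Regulators of S1pr1 were measured beside it. Klf2, the transcription factor that drives S1pr1 in naive T cells, was at 8.83 and 8.87 on the TACI-/- arrays against 8.67 and 8.66 on the WT arrays, a log2 difference of 0.19 ± 0.13 (SE). Foxo1, which acts upstream of Klf2, had 0.23 ± 0.14, and Stat3 0.04 ± 0.14. Cd69, whose protein binds S1PR1 and takes it off the cell surface, was at 9.57 and 9.48 on the TACI-/- arrays against 8.86 and 8.56 on the WT arrays. Both TACI-/- arrays were the higher ones, and the log2 difference was 0.82 ± 0.15 (limma adjusted p = 0.211), a difference that passed with an intensity trend in the variance model (limma adjusted p = 0.0429). None of these 4 genes passed the threshold in the fit reported here. Surface protein was not measured.

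Gpr183 (EBI2) senses oxysterols made from cholesterol and positions T and B cells at the edges of follicles and T zones. It was at 9.61 and 9.52 log2 units on the TACI-/- arrays against 9.20 and 9.19 on the WT arrays. The genotypes were separated and the replicates close, and the log2 difference was 0.37 ± 0.13 (SE; limma adjusted p = 0.515), with an interval from 0.06 to 0.68. Gpr18, a receptor of lymphocytes for which lipid ligands have been reported, is the neighbour of Gpr183 on chromosome 14 in RefSeq gene order. It was at 8.52 and 8.33 on the TACI-/- arrays against 8.44 and 8.51 on the WT arrays. These overlapped, with a log2 difference of -0.05 ± 0.14 (interval -0.38 to 0.28), and without TACI-/- replicate 2 it was 0.047. Both genes lie within the extent of Ubac2 in RefSeq, which had a log2 difference of 0.16 ± 0.13. Whether the probe sets of such overlapping genes separate the strands was not given in the labels.

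Gpbar1 (TGR5) is the cell-surface receptor for bile acids, coupled to cyclic AMP. It was at 5.20 and 5.32 log2 units on the TACI-/- arrays and at 4.12 and 4.21 on the WT arrays. The WT values were near the medians of those arrays over all probe sets (4.11 and 4.13), so the difference starts from a low level. No TACI-/- array came near a WT array, and replicates within a genotype differed by a small part of the gap between genotypes. The means were 5.26 ± 0.09 and 4.17 ± 0.07 (SD, n = 2), a log2 difference of 1.09 ± 0.13 (SE) with an interval from 0.77 to 1.41. Of the 13782 tested genes, 28 (0.203%, Gpbar1 included) had a difference at least as high. Its limma adjusted p was 0.0735, and it lay under 0.05 with the low-value filter at the 60th percentile (0.0289), with all 4 arrays required above the 40th percentile (0.0342) and with an intensity trend in the variance (0.0429). Without any 1 array it was 0.287 to 0.505, while the log2 difference stayed between 1.03 and 1.15. The neighbouring genes on chromosome 1, Arpc2 and Aamp, had log2 differences of -0.07 and 0.20, and neither passed the threshold.

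The tested genes whose 4 array values, each centred on its own mean, lay closest to those of Gpbar1 were Zbtb10, a zinc finger gene, Vps37b, an ESCRT sorting subunit, and Dusp10, a phosphatase of stress-activated MAP kinases. The root mean square differences from Gpbar1 over the 4 arrays were 0.02, 0.05 and 0.06 log2 units. Zbtb10 was at 5.99 and 6.12 on the TACI-/- arrays against 4.86 and 5.01 on the WT arrays. The log2 differences of the 3 genes were 1.12, 1.00 and 1.06, with limma adjusted p from 0.075 to 0.0827. A match over 4 arrays describes these arrays and was not tested.

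Oxysterols and bile acids are the ligands of Gpr183 and Gpbar1. Of 9 measured genes of their handling, nuclear receptors and transporters included, 4 were tested, and the others did not pass the low-value filter. The oxysterol enzymes Ch25h and Cyp7b1 and the nuclear bile acid receptor Nr1h4 were below the low-value level on all 4 arrays. None of the 4 tested genes passed the threshold in either direction, and 1 had a positive and 3 a negative difference. Those with the lowest unadjusted p were Vdr, the vitamin D receptor, which also senses a secondary bile acid, at -0.22 ± 0.16 (SE), and Nr1h3, an oxysterol-sensing nuclear receptor, at -0.27 ± 0.22.

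P2ry10 is a receptor for lysophosphatidylserine on T and B cells, known from T cell migration. It was at 7.00 and 7.09 log2 units on the TACI-/- arrays against 6.62 and 6.26 on the WT arrays. The genotypes were separated, and the WT arrays differed more from each other than the TACI-/- arrays did. The means were 7.04 ± 0.06 and 6.44 ± 0.26 (SD, n = 2), a 1.52-fold difference (log2 0.60 ± 0.16, SE; limma adjusted p = 0.36). Leaving out WT replicate 1 gave 0.79 and WT replicate 2 gave 0.42. Related receptor genes lie beside it on the X chromosome. P2ry10b was at 4.89 and 5.14 on the TACI-/- arrays against 5.17 and 5.43 on the WT arrays, a log2 difference of -0.28 ± 0.16, and Gpr174, another lysophosphatidylserine receptor, had -0.03 ± 0.15. Lpar4, a lysophosphatidic acid receptor gene, had 0.20 ± 0.22. These differences were not tested against that of P2ry10. Of 7 tested receptors for lysophospholipids and related lipids outside the 10, none passed in either direction, 3 were positive and 4 negative, and the median was -0.03. Lpar1 had -0.42 ± 0.14 but was below the low-value level on both TACI-/- arrays.

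Gpr132 is a stress-inducible receptor of lymphocytes and macrophages that has been linked to lysophospholipids and oxidised fatty acids. It was at 8.44 and 8.25 log2 units on the TACI-/- arrays against 7.90 and 7.82 on the WT arrays. Both TACI-/- arrays lay above both WT arrays, with a log2 difference of 0.48 ± 0.14 (SE; limma adjusted p = 0.405) and an interval from 0.15 to 0.82. Gpr65 and Gpr4, proton sensors of the same branch of the family, had -0.05 ± 0.14 and -0.33 ± 0.15.

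Gpr171, a P2Y-like receptor reported to restrain T cell activation, had 2 probe sets of 1 symbol. The brighter was at 7.28 and 7.18 log2 units on the TACI-/- arrays against 6.82 and 6.99 on the WT arrays, and the nearest arrays of the genotypes lay about as far apart as the pair of WT arrays. Its log2 difference was 0.33 ± 0.14 (SE; limma adjusted p = 0.576). The dimmer probe set was at 5.16 and 4.84 against 4.21 and 4.69, a difference of 0.55, of the same sign. Gpr171 lies within the extent of Med12l in RefSeq, and Med12l had 0.09 ± 0.16. Its neighbour on chromosome 3, P2ry14, a receptor for UDP-sugars, was at 4.57 and 4.48 on the TACI-/- arrays against 3.84 and 4.02 on the WT arrays, a log2 difference of 0.60 ± 0.14 (limma adjusted p = 0.302). Of the 5 tested receptors for nucleotides and other metabolites, P2ry14 among them, none passed in either direction, with 3 positive and 2 negative. Hcar1, the lactate receptor, had -0.35 ± 0.15. Leukotriene, cannabinoid, fatty acid and related receptors were mostly dim, with 9 of 13 below the low-value level on all 4 arrays and 3 tested. Of those 3, none passed; Cnr2, the cannabinoid receptor of immune cells, had -0.33 ± 0.16 and Ffar1 0.15 ± 0.17.

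Ptger4 (EP4) is a receptor for prostaglandin E2 that raises cyclic AMP. It was at 6.98 and 6.73 log2 units on the TACI-/- arrays against 6.27 and 6.43 on the WT arrays. The TACI-/- arrays were both the higher ones, and the log2 difference was 0.50 ± 0.15 (SE; limma adjusted p = 0.433), a 1.42-fold difference with an interval from 0.14 to 0.86. The other prostaglandin E2 receptor with 1 symbol and coupling to cyclic AMP, Ptger2, had 0.16 ± 0.17, with 1 array below the low-value level. Of 11 tested genes of the prostaglandin axis outside the 10, none passed in either direction, 8 were positive and 3 negative, and the median was 0.12. Abcc4, an exporter of prostaglandins and cyclic AMP, had 0.30 ± 0.14, and Tbxa2r, the thromboxane receptor, -0.28 ± 0.14.

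Adora2a, the adenosine receptor of T cells, was not analysed, since it had no probe set paired with 1 gene symbol. Probe sets with several symbols were not examined. Genes that make and clear adenosine were measured. Nt5e (CD73), which makes adenosine outside the cell, was at 6.57 and 6.43 log2 units on the TACI-/- arrays against 5.75 and 6.06 on the WT arrays, a log2 difference of 0.59 ± 0.16 (SE; limma adjusted p = 0.353). The nucleoside carrier Slc29a1 had 0.39 ± 0.15. Adenosine deaminase, Ada, had 0.39 ± 0.16 and was chosen after its value was seen. Both TACI-/- arrays lay above both WT arrays for 4 of the 6 tested genes of the axis, these 3 and Dpp4, and below for 1, Slc29a2, where 20.5% and 18.1% of all tested genes were separated in these directions. None of the 6 passed the threshold, and their median was 0.27.

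Downstream of the receptors the values scattered around 0. Of 16 tested G protein subunit genes, none passed in either direction, 9 were positive and 7 negative, and the median was 0.07. Gna13, a subunit that S1P and lysophospholipid receptors can use, had 0.37 ± 0.14 (SE), Gnai1 0.32 ± 0.14, and Gnai2, the main inhibitory subunit of lymphocytes, -0.04 ± 0.17. The 4 tested receptor kinases and arrestins had differences from -0.16 to 0.05, with Grk5 at -0.16 ± 0.16 (below the low-value level on 2 arrays) and Grk6 at -0.10 ± 0.13. None of these 4 genes passed.

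Of 18 tested genes of the cyclic AMP pathway, none passed in either direction, 7 were positive and 11 negative, and the median was -0.02. Pde8a, a phosphodiesterase that breaks down cyclic AMP, was at 5.26 and 4.82 log2 units on the TACI-/- arrays against 4.59 and 4.03 on the WT arrays. The pairs were separated but wide, and the log2 difference was 0.73 ± 0.23 (SE; limma adjusted p = 0.479). Crem, a cyclic AMP-responsive transcription factor gene, had 0.39 ± 0.14, and Creb1 -0.34 ± 0.14; Creb1 was chosen after its value was seen. Over all 13 ligand and signalling lists, 93 genes were tested, each counted once, with 48 positive and 45 negative differences, a median of 0.018, and 0 past the threshold in limma. At an unadjusted p under 0.05 there were 9 higher and 2 lower, and without overlap between the genotypes 22 higher and 22 lower, of 93. The shares over all tested genes were 4.94% and 3.84% for the unadjusted p and 20.5% and 18.1% for separation.

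**Figure D3:**
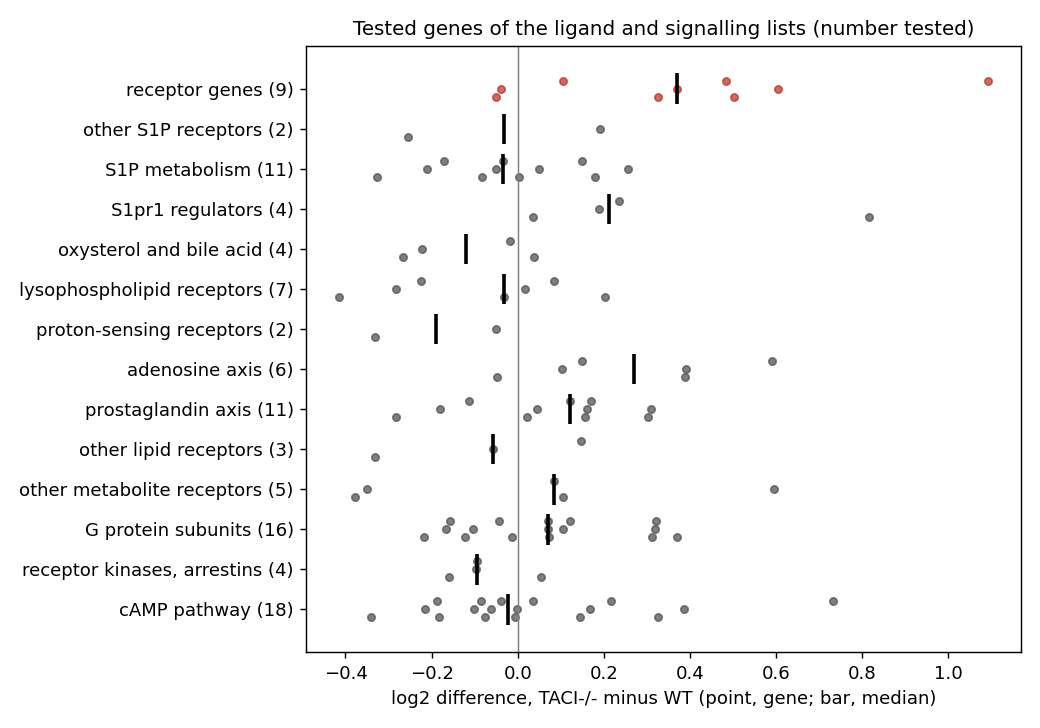
Log2 difference, TACI-/- minus WT (x axis), of each tested gene in the receptor set (red) and in 13 ligand and signalling lists (grey), with a bar at each list's median; the number tested is in brackets, and heights within a row have no meaning. The receptor genes have a median of 0.37, and the list medians lie between -0.19 and 0.27. S1pr1 regulators include Cd69, the point at 0.82.

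Markers of other cells were measured beside the receptor genes, since several of these receptors are also expressed by B cells, activated T cells or macrophages. In bulk samples fewer cells of a type and less RNA per cell cannot be told apart. All 7 tested markers of B cells had a positive log2 difference (median 0.35), beside 51.8% of all tested genes, and none passed the threshold. Their mean level over 11 measured members was 4.56 and 4.34 log2 units on the TACI-/- arrays and 4.08 and 4.20 on the WT arrays, and Ms4a1, Blk and Ebf1 were below the low-value level on all 4. H2-Aa and H2-Ab1, chains of MHC class II, had 0.57 ± 0.14 and 0.53 ± 0.22, and the B cell adaptor gene Bank1 0.44 ± 0.17. Regulatory T cell markers were positive in 8 of 8, with a median of 0.47 and 1 past the threshold, Ctla4, at 1.57 ± 0.14 (SE; limma adjusted p = 0.0246). Of these, Ikzf2 and Lrrc32 were below the low-value level on both WT arrays. They passed the low-value filter through the TACI-/- arrays alone, which favours a positive sign. The mean level of the regulatory T cell list was 5.75 and 5.73 on the TACI-/- arrays against 5.18 and 5.14 on the WT arrays. The 6 tested markers of activated and memory T cells were all positive (median 0.62, none past the threshold), with mean levels of 5.77 and 5.65 against 5.36 and 5.08. Nr4a1, induced by antigen receptor signals, had 1.61 ± 0.28 and Il2rb 1.11 ± 0.16, the largest of this list. Cd69 had 0.82 ± 0.15, Egr2 0.43 ± 0.17, Cxcr3 0.28 ± 0.16 and Cd44 0.19 ± 0.14. The memory-linked genes S100a4, S100a6 and Itgae did not pass the low-value filter and had differences of -0.19, 0.09 and 0.06. For each of these 3 lists both TACI-/- means were above both WT means.

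Myeloid and dendritic cell markers, which are of interest beside Gpbar1 because macrophages express it, were positive for 2 of the 5 tested (median -0.00094), and none passed the threshold. Their mean level over 11 measured members was 3.81 and 3.81 on the TACI-/- arrays and 3.90 and 3.89 on the WT arrays. Lyz2 had a log2 difference of -0.49 ± 0.15 (SE) and Csf1r -0.15 ± 0.13, while Cd68 had 0.71 ± 0.17. The neutrophil genes S100a8 and S100a9 were below the low-value level on all 4 arrays. CD8 T and NK cell markers were positive in 2 of 4, with a median of -0.24 between values of opposite sign. Klrd1, an NK cell receptor chain, had -0.87 ± 0.15, Cd8b1, a chain of CD8, -0.65 ± 0.16, and Eomes, a transcription factor of NK and effector T cells, 0.79 ± 0.16. Markers of naive CD4 T cells were positive in 1 of 6, with a median of -0.09, and none of either list passed. Il7r had the lowest value of the naive list, -0.48 ± 0.15.

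**Figure D4:**
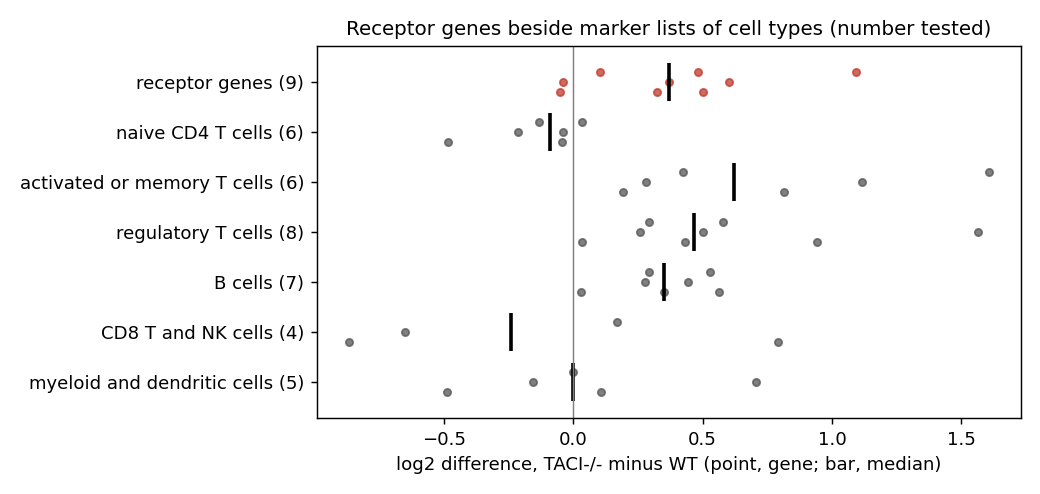
Log2 difference, TACI-/- minus WT (x axis), of each tested gene in the receptor set (red) and in 6 lists of cell type markers (grey), with a bar at each list's median and the number tested in brackets. Medians of the activated or memory, regulatory T cell and B cell lists are 0.62, 0.47 and 0.35, that of the receptor genes 0.37, and those of the naive, CD8 and NK, and myeloid lists are -0.09, -0.24 and -0.00094.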

How the data were processed

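Expression was measured in 4 samples of naive CD4+ T cells, 2 TACI-/- and 2 WT, grouped by the genotype in their titles. The deposited table held 1 log2 value per probe set and array (41345 probe sets). Per the submitters' processing notes RMA and Partek were used; no version or role is recorded, and a log base of 2 is inferred from RMA. RMA quantile normalizes arrays, so a shift common to most genes would not be seen.

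Probe sets with 1 gene symbol were kept (23521; 1814 had several and 16010 none), and the brightest stood for its gene. Genes with at least 2 arrays at or above the array's 40th percentile were fitted by genotype alone in limma 3.58.1 (R 4.3.3; moderated variance, two-sided, Benjamini-Hochberg, threshold 0.05). Errors are moderated standard errors or standard deviations, and intervals are 95% intervals of that fit. In simulated data for the same number of genes and arrays, the fit called 3.2% of 1.5-fold changes at the threshold. It called 53.4% of 2-fold and 94.6% of 3-fold changes, so a smaller difference that did not pass may still be real. The genes to name were all 10 receptor genes, from each ligand or signalling list the members past the threshold and the 2 with the lowest unadjusted p, all S1pr1 regulators, and the 3 genes closest in pattern to the receptor gene of largest difference; any other gene, cell type markers and chromosomal neighbours included, was picked with its value known. The receptor genes, lists and motifs were chosen with earlier results of these data known. The alternatives were other low-value filters, normalizations, probe set summaries, variance models, a replicate block, and leaving out each array. In the labels, same-numbered arrays share only a number. RefSeq tables (GRCm38.p6) gave promoter sequences, chromosomes and gene order.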

Additional observations from a re-analysis of the deposited data

How the results depend on the processing

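Of 126 values of the 9 receptor genes under 14 alternatives, 121 kept their direction and their side of the threshold. Gpbar1 passed with the filter at the 60th percentile, with all 4 arrays required above the 40th percentile and with an intensity trend, so the count of receptor genes past the threshold was 1 there and 0 in the other settings. Over the fits without 1 array S1pr4 lay between -0.16 and 0.086 and Gpr18 between -0.15 and 0.047, with the sign changed without TACI-/- replicate 2. The count of all genes past the threshold was 19; it was 3 with no low-value filter, 45 with the 60th percentile, 35 with all 4 arrays required, 12 with quantile normalization again, 46 with an intensity trend, and 0 with no moderation of the variance (986 genes at an unadjusted p under 0.05). It was 0 to 0 over the fits that left out 1 array (686 to 1135 genes at an unadjusted p under 0.05), which have fewer samples. Genes of the ligand and signalling lists past the threshold numbered 1 with an intensity trend, Cd69. The number of receptor genes with a positive difference was 7, and 7 to 9 over the fits without 1 array. Of all tested genes, 51.8% had a positive difference in the fit reported here. With the replicate number as a block, 13 genes passed and no receptor gene, with 0.114 as the limma adjusted p of Gpbar1. The deviations of same-numbered arrays from their group means correlated at -0.03 over the tested genes. With 2 arrays per genotype, that value cannot show whether same-numbered samples were handled together. For the alternatives that moved a result with the same samples and genes, the cause was not tested. With 2 arrays per genotype, the intervals of Gpr171 (-0.0045 to 0.66), S1pr1 (-0.21 to 0.42), S1pr4 (-0.38 to 0.31) and Gpr18 (-0.38 to 0.28) included 0. These differences were not told from 0 in the fit reported here. The intervals of the other receptor genes tested did not include 0, but they are not corrected for the number of genes. None of those genes passed the threshold in that fit.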
